A study of Mus musculus with 12 samples.

Results

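The hippocampus of ethanol + stress mice was compared with that of control mice over all genes measured by RNA-Seq. The comparison held 6 of the 12 libraries of the series, 3 from each group, and 14455 of the 35580 genes in the table, namely those with a mean of 1 TPM or more over the 12 libraries. TPM is the share of a transcript in the RNA of a library, corrected for its length, and the TPM of all transcripts of a gene were summed after GENCODE vM21. Positions below are those of that annotation on GRCm38. Just inside that minimum lay A730061H03Rik and Twist1 with means of 1.00007 and 1.00022 TPM, and just outside it Carns1 and Shcbp1 with 0.99971 and 0.99912 TPM.

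All animals were male C57BL/6 mice whose hippocampus was dissected on postnatal day 70. The dams of the ethanol + stress mice had free access to 10% ethanol in water beside plain water, before and through pregnancy and into the first postnatal days, and the pups were isolated from the nest on postnatal days 2 to 14, each day for 3 h. Control mice came from dams given water alone and were not separated. The ethanol group had the drinking dams without the separation, and the stress group had the separation without the ethanol. Ethanol intake was voluntary, pups within a litter were split between separated and undisturbed mice, and the litter of each mouse is not given in the sources used here. The replicate numbers are those of the labels, and the p-values measure only the spread between these samples.

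Ethanol reaches the fetal brain through the placenta, and separation from the dam raises corticosterone in rodent pups. The hippocampus carries a high density of receptors for that hormone and is the part of the brain known for spatial and episodic memory. Neither exposure was present at postnatal day 70, so the comparison addressed whether differences in the RNA of the adult hippocampus followed the early exposures. Each library holds the RNA of a whole tissue, in which fewer cells of a type and less RNA per cell cannot be told apart.

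The deposited values of a library summed to between 889222 and 1173650, because the TPM had been scaled between libraries. The low values lay near whole multiples of a step, by which the libraries were estimated to hold 12100000 to 14800000 read pairs, with 12100000 to 13100000 in control and 12800000 to 14200000 in ethanol + stress. At that depth 3 read pairs on a transcript of 2000 bases correspond to 0.18 to 0.223 TPM. All 16 markers of hippocampal principal neurons passed the minimum, with summed levels of 698.2 to 773.1 TPM in control libraries and of 690.4 to 803.2 TPM in ethanol + stress libraries. Markers of neighbouring tissue were low and even for thalamus (90.7 to 95.1 TPM against 79.0 to 93.2 TPM, over 10 genes) and striatum (126 to 153 TPM and 126 to 147 TPM, over 11 genes). The 17 measured choroid plexus markers were uneven, summing to 1707, 891.1 and 2407 TPM in the control libraries and to 2920, 8132 and 384.3 TPM in ethanol + stress libraries 1, 2 and 3.

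Of the 14455 genes, 97 were called higher and 41 lower in ethanol + stress than in control. A gene was called at an unadjusted p under 0.01 in a limma model of log2(summed TPM + 0.5) over the 4 groups, the threshold used for the transcript lists of the study. The calls made up 0.955% of the genes, 0.671% higher and 0.284% lower, which is close to the share that this threshold passes by itself where no gene differs (145 genes). No gene had a Benjamini-Hochberg adjusted p under 0.05 in limma, the lowest being 0.162, although 775 genes had an unadjusted p under 0.05. The single genes below are therefore described by their values in every library, and none of them passed a correction for the number of genes tested.

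In 135 of the 138 called genes the 3 ethanol + stress values lay entirely on one side of the 3 control values, which was also the case for 5.5% of all genes upwards and 4.88% downwards. The exceptions were Lcat, Hist1h2bl and Gm48042. Most differences were small, with a median log2 difference of 0.63 among the higher and -0.57 among the lower genes, and 77 of the 97 and 34 of the 41 lay under 1 on that scale. Among the calls 14 were processed pseudogenes, 1 was another pseudogene and the rest were protein-coding genes, and 20 overlapped another annotated gene on the same strand. The split between directions depended on the scaling: with every library brought to a common total the calls were 41 higher and 42 lower, and the median log2 difference over all genes moved from 0.02 to -0.11. Directions are given below on the deposited scale, relative to a median near 0.

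**Figure D1:**
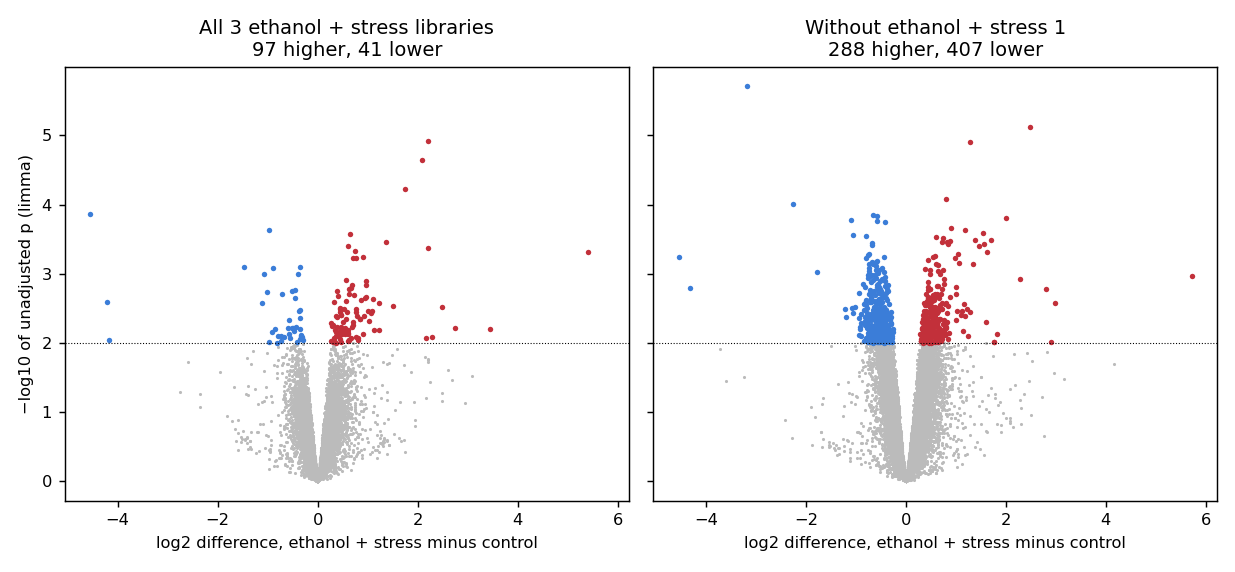
Each point is 1 of 14455 genes, with the log2 difference between ethanol + stress and control on the horizontal axis and the −log10 of the unadjusted limma p on the vertical axis, once with all libraries and once without ethanol + stress library 1. Red and blue points above the dotted line (p of 0.01) are called genes, 97 higher and 41 lower on the left, 288 higher and 407 lower on the right.

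Genes of red blood cells were the one list whose measured members were all called. All 5 measured members of the blood list were called higher, beside 0.671% of all genes. Their median log2 difference was 1.08, beside 0.02 over all genes. They were the β-globin genes Hbb-bs and Hbb-bt, the α-globin genes Hba-a1 and Hba-a2, and Alas2, the erythroid enzyme that starts haem synthesis. The sixth listed gene, Slc4a1, encodes the anion exchanger of the red cell membrane and lay under the minimum. Globin genes of a cluster are nearly identical in sequence, so the division of reads between Hbb-bs and Hbb-bt and between Hba-a1 and Hba-a2 is uncertain. Because these genes moved together, windows of 300 bases around the start of 3 of them are shown from RefSeq on GRCm38.p6, in the direction of transcription. Capitals mark the letters GATA, CCAAT and CACCC on either strand, the cores of elements known from globin promoters.
Hbb-bs, chr7:103827879-103828178, minus strand: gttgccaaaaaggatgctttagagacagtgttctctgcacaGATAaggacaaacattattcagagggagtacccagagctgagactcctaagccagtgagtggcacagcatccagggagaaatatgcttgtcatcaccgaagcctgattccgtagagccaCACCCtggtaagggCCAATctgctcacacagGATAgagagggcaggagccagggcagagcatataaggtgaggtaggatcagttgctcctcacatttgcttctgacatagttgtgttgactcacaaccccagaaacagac
Hba-a1, chr11:32283422-32283721, plus strand: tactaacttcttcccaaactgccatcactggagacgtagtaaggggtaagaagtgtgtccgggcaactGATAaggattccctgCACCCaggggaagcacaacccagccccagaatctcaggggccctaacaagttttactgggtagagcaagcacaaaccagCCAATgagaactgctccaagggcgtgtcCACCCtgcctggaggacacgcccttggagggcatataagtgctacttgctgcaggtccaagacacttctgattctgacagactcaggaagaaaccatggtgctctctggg
Alas2, chrX:150547167-150547466, plus strand: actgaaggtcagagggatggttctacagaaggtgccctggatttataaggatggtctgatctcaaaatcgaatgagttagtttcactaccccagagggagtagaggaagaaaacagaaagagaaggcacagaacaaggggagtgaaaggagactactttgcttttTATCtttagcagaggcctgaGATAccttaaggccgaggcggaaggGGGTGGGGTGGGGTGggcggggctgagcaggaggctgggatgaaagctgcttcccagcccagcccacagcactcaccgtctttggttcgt

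The Hbb-bs window held 2 matches to GATA, 1 to CCAAT and 1 to CACCC, the Hba-a1 window 1, 1 and 2, and the Alas2 window 2, 0 and 3, where the 3 CACCC matches in Alas2 lie on the opposite strand. These short words are common: GATA occurred in 57.9%, CCAAT in 37.4% and CACCC in 57.5% of 32851 windows of the same length. The matches are descriptions and were not tested.

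Hbb-bs (chr7:103826534-103828096) stood at 1009, 804.3 and 863.3 TPM in control and at 1192, 3487 and 2130 TPM in ethanol + stress. The groups did not overlap, and ethanol + stress mouse 1 lay nearest to control. The log2 difference was 1.22 ± 0.37 (SE, limma adjusted p = 0.751).

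Hba-a1 (chr11:32283511-32284465) stood at 354.9, 251.9 and 274.3 TPM in control and at 424.7, 957.6 and 575.0 TPM in ethanol + stress, again without overlap and again with mouse 1 lowest of its group. Its log2 difference was 1.08 ± 0.30 (limma adjusted p = 0.751). Alas2 (chrX:150547375-150570638) stood at 7.16, 5.90 and 8.15 TPM in control and at 10.0, 17.6 and 12.9 TPM in ethanol + stress, a log2 difference of 0.86 ± 0.22 (limma adjusted p = 0.751).

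The globin genes and Alas2 were not particular to the combined exposure. Hbb-bs stood at 1713, 3561 and 1502 TPM in the ethanol mice while the stress mice stood at 1738, 1246 and 1449 TPM, against the same 3 controls. The log2 difference between ethanol + stress and ethanol was -0.02 ± 0.37 and that between ethanol + stress and stress 0.50 ± 0.37, and neither passed the threshold. The summed level of the 5 genes was 1603 to 2022 TPM in control and at least 2454 TPM in every library of the 3 treated groups, so the control libraries are the low ones. The part of blood left in the dissected tissue was not tested. Each of the 5 genes lost its call without control library 2 and without ethanol + stress library 2, where the log2 differences were 0.84 for Hbb-bs and 0.66 for Alas2 without the latter. Of the 6 libraries, Hbb-bs kept its call without ethanol + stress library 1 alone (log2 difference 1.62).

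Metallothionein 2, a small cysteine-rich protein that binds zinc and copper and is induced by metals and glucocorticoids, was called higher and also separated ethanol + stress from the other treated groups. Mt2 (chr8:94172664-94173568) stood at 184.2, 103.7 and 161.3 TPM in control and at 237.8, 294.9 and 365.2 TPM in ethanol + stress, higher than in each of the other 9 libraries, whose highest value was 204.9 TPM. The log2 difference was 1.02 ± 0.28 from control (limma adjusted p = 0.751), 0.86 ± 0.28 from ethanol and 1.01 ± 0.28 from stress. Both of the latter passed the same unadjusted threshold, with limma adjusted p of 0.999 and 0.860, and the same holds wherever a gene is said below to pass against these groups unless another value is given.

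Its neighbour Mt1, named after its values were seen, stood at 455.4, 125.6 and 375.8 TPM in control and at 660.9, 897.1 and 975.6 TPM in ethanol + stress, a log2 difference of 1.58 ± 0.54 that did not pass the threshold. Mt2 lost the call without control library 2 (log2 difference 0.77) and without ethanol + stress library 3 (0.86). The other 15 members of the glucocorticoid-induced list were not called, and the list had a median log2 difference of 0.17. The start of Mt2 is shown because metallothionein promoters are known for metal response elements, whose core is TGCACNC or TGCGCNC, with capitals marking each match on either strand.
Mt2, chr8:94172368-94172667, plus strand: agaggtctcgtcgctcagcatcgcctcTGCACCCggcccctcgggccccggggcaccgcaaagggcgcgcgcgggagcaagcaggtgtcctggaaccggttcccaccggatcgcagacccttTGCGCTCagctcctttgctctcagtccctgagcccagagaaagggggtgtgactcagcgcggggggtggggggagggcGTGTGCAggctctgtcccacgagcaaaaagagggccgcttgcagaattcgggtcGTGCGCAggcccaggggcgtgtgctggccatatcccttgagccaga

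The Mt2 window held 4 matches and that of Mt1 held 3, and 25.7% of the 32851 windows held at least 1.

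**Figure D2:**
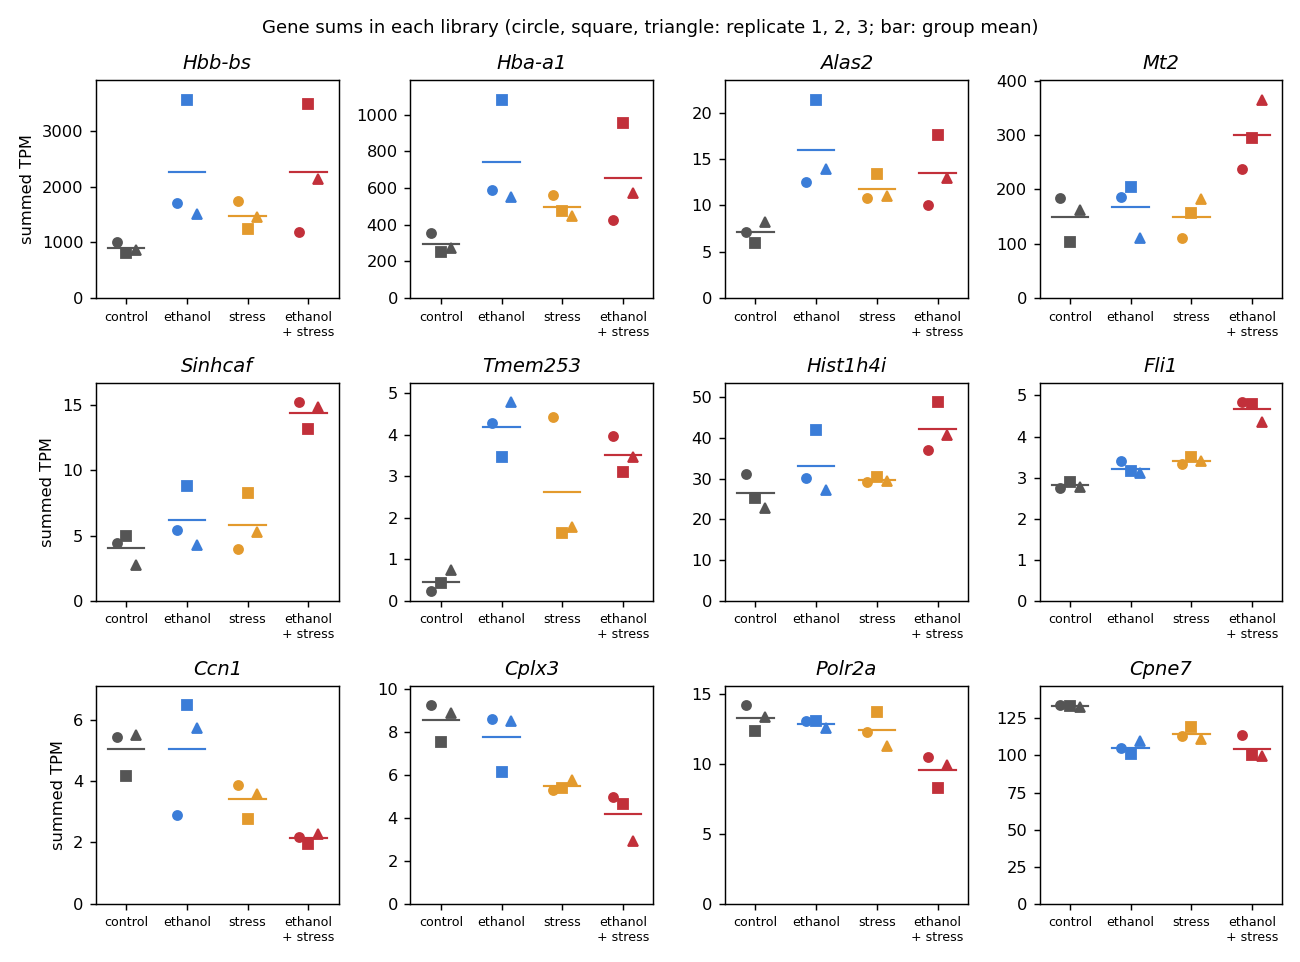
Summed TPM of 12 genes in each of the 12 libraries, with each vertical axis starting at 0, symbols for the replicate number and a bar at the mean of each group. Hbb-bs, Hba-a1, Alas2 and Tmem253 are high in all 3 treated groups, Mt2, Sinhcaf and Fli1 are highest in ethanol + stress, and Polr2a is lowest there.

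Sinhcaf and Tmem253 had the smallest p-values among the higher coding genes. Sinhcaf, a subunit of the Sin3 histone deacetylase complex (chr6:148921035-148946467), stood at 4.42, 4.99 and 2.78 TPM in control and at 15.2, 13.2 and 14.9 TPM in ethanol + stress. All 3 ethanol + stress values exceeded all 9 others, the next being 8.79 TPM in ethanol mouse 2. The log2 difference of 1.74 ± 0.29 from control (limma adjusted p = 0.284) came with differences of 1.21 ± 0.29 from ethanol and 1.29 ± 0.29 from stress, both past the threshold.

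When protein-coding transcripts alone were summed, the log2 difference of Sinhcaf was 0.60 and the call was lost. Tmem253, which encodes a transmembrane protein (chr14:52015658-52019794), stood at 0.233, 0.419 and 0.741 TPM in control and at 3.97, 3.12 and 3.46 TPM in ethanol + stress. The separation was wide, but the ethanol mice at 4.29, 3.48 and 4.78 TPM and the stress mice with 4.43, 1.63 and 1.79 TPM were also above control. Its log2 difference was 2.09 ± 0.31 from control (limma adjusted p = 0.162), -0.22 ± 0.31 from ethanol and 0.47 ± 0.31 from stress, and the latter 2 did not pass the threshold.

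Among the protein-coding genes called higher, the largest log2 difference was that of S100a8, a calcium-binding protein abundant in neutrophils (chr3:90668978-90670035). It stood at 2.51, 0.463 and 1.30 TPM in control and at 2.76, 16 and 8.37 TPM in ethanol + stress, where mouse 1 barely exceeded the highest control. The log2 difference was 2.17 ± 0.69 (limma adjusted p = 0.751) and 2.80 without mouse 1, and the call was kept in 9 of 18 alternative fits. Ctrc, annotated as the digestive protease chymotrypsin C (chr4:141814962-141846359), stood at 12.6, 14.5 and 10.9 TPM in control and at 25.6, 37.4 and 38.3 TPM in ethanol + stress, a log2 difference of 1.37 ± 0.28. It overlaps Cela2a, the gene of another digestive protease, on the same strand, and the ethanol and stress mice were as high, at 20.6 to 49.4 TPM.

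Ctla2a, which encodes a cysteine protease inhibitor, stood at 8.57, 8.38 and 3.92 TPM in control and at 12.6, 16.5 and 15.4 TPM in ethanol + stress, a log2 difference of 1.11 ± 0.29. Zfp972, a zinc finger gene, was higher by 1.5 ± 0.40, but control mouse 1 lay near 0 (0.0255 TPM, with 1.08 and 0.973 TPM in the others), and the ethanol and stress mice at 1.47 to 3.38 TPM matched the ethanol + stress mice at 3.63, 2.43 and 1.79 TPM. In neither gene did the 2 groups overlap.

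**Figure D3:**
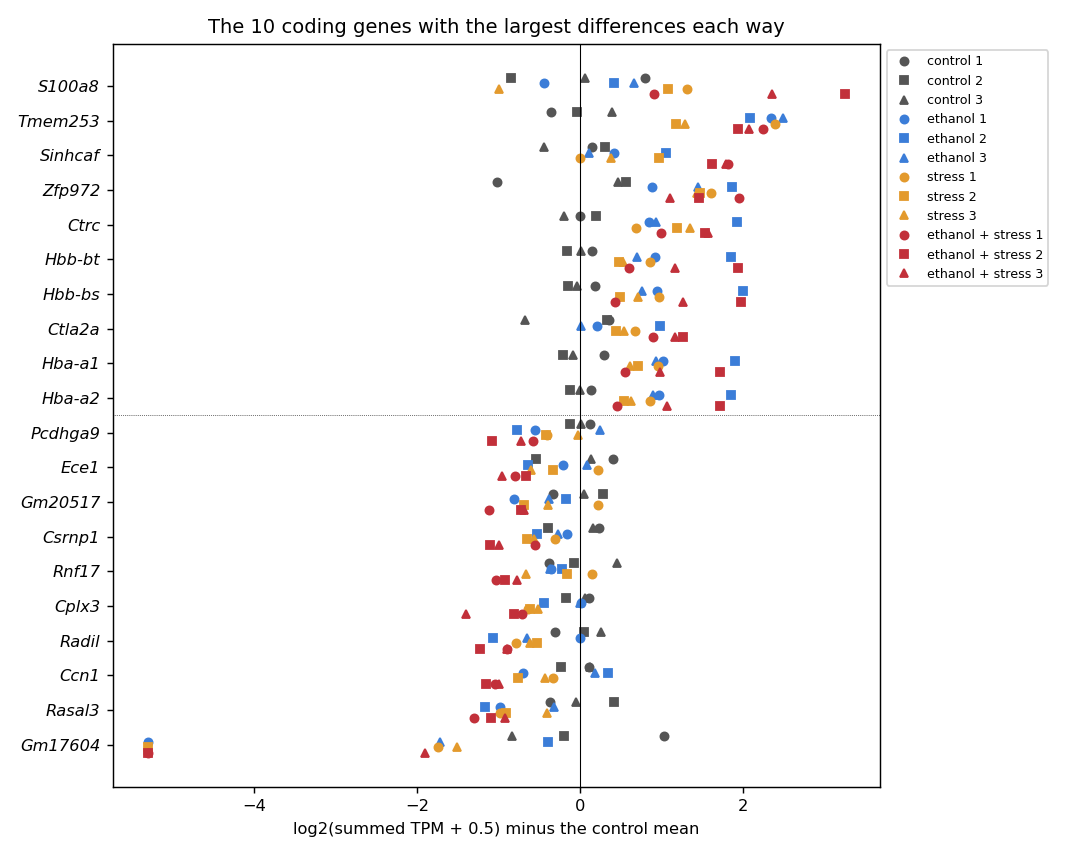
The 10 protein-coding genes with the largest called differences in each direction, showing log2(summed TPM + 0.5) minus the control mean in every library. Ethanol + stress points lie on 1 side of the control points in each gene, and Gm17604 includes libraries listed at 0. Ethanol + stress 1 is the nearest to control in Hbb-bs, Hbb-bt, Hba-a1, Hba-a2, S100a8, Ctrc, Ctla2a, Cplx3, Csrnp1 and Pcdhga9. In Radil it is level with ethanol + stress 3 as the nearest.

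Replication-dependent histone genes, which supply the core histones when DNA is copied and lack a poly(A) tail, were the other list with several calls. Of 63 measured members 5 were called higher (Hist1h2be, Hist1h4i, Hist1h2ab, Hist1h4j and Hist1h2bl) and none lower, beside 0.671% of all genes called higher, with a median log2 difference of 0.28, and 55 members had a positive difference, beside 52.9% of all genes. Hist1h4i (chr13:22040636-22041362) stood at 31.2, 25.2 and 22.8 TPM in control and at 37.0, 48.7 and 40.7 TPM in ethanol + stress. The groups did not overlap, and the log2 difference was 0.67 ± 0.16 (limma adjusted p = 0.751), with the call kept whichever library was left out. Hist1h2ab stood at 17.2, 17.6 and 14.1 TPM in control and at 30.2, 43.9 and 24.7 TPM in ethanol + stress, a log2 difference of 0.96 ± 0.25. Histone genes are short and similar to each other, and the shortest genes as a whole were higher in ethanol + stress mice 2 and 3, as described below.

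The other called members of the lists were few. Iyd, which encodes an iodotyrosine deiodinase and stood in the list of hippocampal principal neurons, was at 4.12, 7.0 and 5.36 TPM in control and at 8.53, 7.80 and 9.05 TPM in ethanol + stress (log2 difference 0.61 ± 0.18), while the 15 other members were not called and the list had a median of -0.12. Igf2, a growth factor made in the brain mostly by meninges and choroid plexus, was at 18.9, 14.2 and 17.3 TPM in control and at 23.9, 29.6 and 21.5 TPM in ethanol + stress (0.56 ± 0.17), while the 11 other markers of meninges and fibroblasts were not called and their list had a median of 0.04. The groups did not overlap in either gene, and neither gene passed the threshold against the ethanol or the stress group. Igf2 also lay above all controls in the ethanol mice (20.4 to 27.1 TPM) and the stress mice (19.4 to 27.4 TPM). The call was kept in 9 of 19 alternative fits for Iyd and in 11 of 19 for Igf2. Both lost it without ethanol + stress mouse 1, where the log2 differences were similar, at 0.60 for Iyd and 0.58 for Igf2.

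Fli1, Cd52, H2-Ab1, Ptpn6 and Tbxas1, known from white blood cells or microglia, were called higher and are named here after their values were seen, from no list, while Rasal3, also of blood cells, was called lower and is given further on. Fli1, a transcription factor of blood and endothelial cells (chr9:32422204-32542861), was the most even, at 2.75, 2.90 and 2.78 TPM in control and at 4.83, 4.80 and 4.35 TPM in ethanol + stress. These 3 values were above all 9 others, and the log2 difference was 0.64 ± 0.12 from control (limma adjusted p = 0.614), 0.47 ± 0.12 from ethanol and 0.40 ± 0.12 from stress, the latter 2 also past the threshold. Cd52, a surface glycoprotein of leukocytes, was at 5.73, 4.65 and 5.54 TPM in control and at 6.11, 13.6 and 13.7 TPM in ethanol + stress, with mouse 1 close to control.

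H2-Ab1, a chain of the class II antigen-presenting molecule, was at 1.67, 2.11 and 0.982 TPM in control and at 3.23, 2.99 and 2.86 TPM in ethanol + stress (log2 difference 0.79 ± 0.22). Ptpn6, a phosphatase of blood cells, was at 2.80, 2.95 and 2.25 TPM in control and at 4.95, 3.5 and 6.74 TPM in ethanol + stress (0.78 ± 0.21). Tbxas1, which makes thromboxane, was at 2.88, 3.95 and 2.68 TPM in control and at 4.70, 6.27 and 8.66 TPM in ethanol + stress (0.92 ± 0.28). None of these groups overlapped. Of the 14 listed microglial markers none was called, and 13 had a positive difference, beside 52.9% of all genes. Their median was 0.25, and their summed level was 695.9 to 764.7 TPM in the controls but 693.4, 959.4 and 1006 TPM in ethanol + stress mice 1, 2 and 3.

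Other called genes act in metabolism and in the cell nucleus, again named after their values were seen. Plin3, which coats lipid droplets, was at 18.6, 16.2 and 16.2 TPM in control and at 22.0, 23.0 and 22.4 TPM in ethanol + stress, above all 9 other libraries, with a log2 difference of 0.39 ± 0.10 from control, 0.48 ± 0.10 from ethanol and 0.55 ± 0.10 from stress, both past the threshold (limma adjusted p = 0.789 against stress). Id1, an inhibitor of basic helix-loop-helix transcription factors, was at 15.7, 16.6 and 21.9 TPM in control and at 23.5, 28.9 and 27.7 TPM in ethanol + stress (0.56 ± 0.13), and also passed against ethanol and stress. Gpt2, a mitochondrial alanine aminotransferase, was at 41.2, 40.2 and 40.9 TPM in control and at 59.1, 58.1 and 46.3 TPM in ethanol + stress (0.41 ± 0.10).

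Mthfs, Cth and Mtrr, enzymes of folate and sulfur amino acid metabolism, were called higher too, and they were picked with their values in view from no list of that pathway. Mthfs, a folate enzyme, was at 11.2, 7.54 and 6.21 TPM in control and at 12, 20.4 and 17.9 TPM in ethanol + stress (log2 difference 0.97 ± 0.23). Cth, which makes cysteine from cystathionine, was at 4.70, 4.86 and 3.68 TPM in control and at 5.98, 7.67 and 7.59 TPM in ethanol + stress (0.63 ± 0.15). Mtrr, which keeps methionine synthase active, was at 10.6, 11.5 and 12.3 TPM in control and at 16, 17.0 and 13.6 TPM in ethanol + stress (0.42 ± 0.13), with the ethanol mice at 9.51 to 12.6 TPM and the stress mice at 10.5 to 12.6 TPM. The 2 groups did not overlap in any of these, and Mthfs did not pass the threshold against ethanol or stress.

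Cplx3, Syt2 and Cpne7 were called lower. They belong to no list tested here, and Syt2 and Cpne7 were named after their values were seen. Cplx3, a complexin that clamps synaptic vesicle fusion (chr9:57599992-57606281), was at 9.23, 7.52 and 8.87 TPM in control and at 4.99, 4.62 and 2.92 TPM in ethanol + stress, below all 9 other libraries. The log2 difference was -0.98 ± 0.19 from control (limma adjusted p = 0.614), -0.83 ± 0.19 from ethanol, which passed, and -0.38 ± 0.19 from stress, which did not. The call was kept in all 19 alternative fits that tested it.

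Syt2, a calcium sensor of fast transmitter release, was at 17.2, 13.3 and 11.8 TPM in control and at 9.73, 6.96 and 8.57 TPM in ethanol + stress (log2 difference -0.71 ± 0.18). Cpne7, a calcium-dependent membrane-binding protein, was at 133.8, 133.4 and 132.6 TPM in control and at 113.6, 100.1 and 99.5 TPM in ethanol + stress (-0.35 ± 0.08), and the ethanol mice at 101 to 110 TPM and the stress mice at 111 to 119 TPM were also below control. Neither gene overlapped between the 2 groups. Cpne7 kept its call in all 19 alternative fits and overlaps Gm20388 on the same strand.

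Ccn1, Csrnp1 and Btg2, each known as an early response gene, were also called lower, and the first 2 belong to no list. Ccn1, a secreted matrix protein induced by growth factors (chr3:145646976-145649981), was at 5.44, 4.17 and 5.52 TPM in control and at 2.16, 1.97 and 2.27 TPM in ethanol + stress, below all 9 others, with a log2 difference of -1.07 ± 0.25 from control, -1.01 ± 0.25 from ethanol, which passed, and -0.56 ± 0.25 from stress, which did not. Csrnp1, a nuclear protein induced by serum and axin, was at 11.6, 7.35 and 11.0 TPM in control and at 6.54, 4.29 and 4.65 TPM in ethanol + stress (-0.88 ± 0.20). It overlaps the microglial receptor gene Cx3cr1 on the same strand.

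Btg2, an antiproliferative early response gene, was at 17.0, 15.0 and 16.7 TPM in control and at 11.1, 9.57 and 9.65 TPM in ethanol + stress (log2 difference -0.66 ± 0.21). Its call was kept in 10 of 19 alternative fits and lost without ethanol + stress mouse 1, where its log2 difference was -0.73. It was the single call among 19 measured immediate early genes, beside 0.284% of all genes called lower, and 8 of the 19 had all 3 ethanol + stress values below control, beside 4.88% of all genes. The list had a median of -0.41, the lowest of all lists, with 16 negative differences, while 52.9% of all genes had a positive one. The ethanol and stress libraries were not at the control level either, with library medians of -0.45, -0.13 and 0.24 in ethanol and -0.14, -0.39 and -0.48 in stress, beside -0.33, -0.23 and -0.58 in ethanol + stress.

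Polr2a, the largest subunit of RNA polymerase II (chr11:69733997-69758637), was named after its values were seen. It was at 14.2, 12.3 and 13.4 TPM in control and at 10.5, 8.27 and 9.94 TPM in ethanol + stress, below all 9 other libraries. The log2 difference was -0.46 ± 0.11 from control (limma adjusted p = 0.751), -0.42 ± 0.11 from ethanol and -0.36 ± 0.11 from stress, the latter 2 also past the threshold. Polr2a and Filip1, a filamin-binding protein also named after its values were seen, at 6.40, 10.2 and 6.84 TPM in control with 5.71, 3.36 and 4.39 TPM in ethanol + stress, were the 2 lower genes that were also below both other treated groups at p under 0.01.

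The remaining lower genes of large difference were of mixed function. Rasal3, a Ras GTPase-activating protein of blood cells, was at 1.86, 3.60 and 2.46 TPM in control and at 0.739, 0.930 and 1.12 TPM in ethanol + stress (log2 difference -1.11 ± 0.29). Radil, a Rap effector in cell adhesion, was at 3.91, 5.16 and 6.00 TPM in control and at 2.43, 1.84 and 2.43 TPM in ethanol + stress (-1.0 ± 0.25). The ethanol and stress mice stood at 0.864 to 1.96 TPM for Rasal3 and at 2.10 to 4.94 TPM for Radil. Neither gene passed the threshold against ethanol or stress. Ece1, the protease that activates endothelin, was at 39.7, 20.5 and 33.1 TPM in control and at 17.1, 18.7 and 15.2 TPM in ethanol + stress (-0.81 ± 0.26). Control mouse 2 was much nearer to the treated mice than the other controls, and the call was lost in 10 of 19 alternative fits.

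Mmp16, a membrane-bound matrix metalloproteinase named after its values were seen, showed a small and even difference, at 21.9, 25.5 and 24.3 TPM in control with 19.2, 17.6 and 17.4 TPM in ethanol + stress (-0.39 ± 0.09), below all 9 others. Rnf17, a Tudor-domain gene known from the testis (-0.91 ± 0.28), lay below 1 TPM in all ethanol + stress libraries. Gm20517 (-0.84 ± 0.25) overlaps Usp49 and Med20 on the same strand. Gm17604 was at 39.9, 16.6 and 10.6 TPM in control but was listed at 0 in ethanol + stress mice 1 and 2 and at 4.77 TPM in mouse 3, and an exact 0 can be a failed estimate. Pcdhga9, a γ-protocadherin of neuronal identity, was at 5.19, 4.29 and 4.76 TPM in control and at 3.02, 1.97 and 2.66 TPM in ethanol + stress (-0.79 ± 0.25), without overlap. Calls were kept in 9 of 18 alternative fits for Pcdhga9, 8 of 17 for Rnf17, 10 of 17 for Gm20517 and 9 of 19 for Gm17604. Pcdhga9 shares its last exons with the rest of its cluster, and of 55 measured clustered protocadherins it was the single call, although 11 lay wholly below control, beside 4.88% of all genes, and 4 had a positive difference, beside 52.9% of all genes (median -0.22).

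Pseudogenes gave the largest fitted differences, mostly against libraries listed at 0. Gm48848 was at 11.7, 9.29 and 12.8 TPM in control and listed at 0 in all 3 ethanol + stress libraries, and also in all 3 stress libraries and in ethanol mice 1 and 2. Gm21769 was listed at 0 in the controls and stood at 13.1, 17.5 and 38.1 TPM in ethanol + stress. Gm12889 was likewise listed at 0 in the controls and stood at 2.51, 3.83 and 2.41 TPM. Gm4202 was the exception, at 42.9, 40.6 and 44.0 TPM in control and at 10.1, 15.0 and 21.9 TPM in ethanol + stress, a log2 difference of -1.48 ± 0.33 (limma adjusted p = 0.707).

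Rpl10a-ps1 was at 17.7, 10.7 and 30.2 TPM in control and near 0 in ethanol + stress mice 1 and 3, with 3.42 TPM in mouse 2. Its values were at most 0.211 TPM in the ethanol mice and 14.1, 9.44 and 0.0028 TPM in the stress mice. Gm10297 was at 2.20 TPM in control mouse 1, listed at 0 in the other controls, and at 7.21, 2.59 and 4.49 TPM in ethanol + stress. Gm49070, named after its values were seen, had the smallest p of all genes: it was listed at 0 in all control and stress libraries and stood at 2.18, 3.73 and 2.03 TPM in ethanol and at 1.09, 2.17 and 2.43 TPM in ethanol + stress. A pseudogene shares reads with its parent gene, and which of them the reads came from is uncertain. Gm21748 and Gm21860 had identical values in all 12 libraries and cannot be told apart.

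Few called genes separated ethanol + stress from all other mice. Over all genes, 0.45% had all 3 ethanol + stress values above the 9 other libraries and 0.277% had them below. Among the called genes these were 21 of 97 higher and 9 of 41 lower genes, a count partly fixed by the call itself because control is among the 9. At an unadjusted p under 0.01, 15 of the 97 were also higher than ethanol and 22 higher than stress, and 6 and 9 of the 41 were lower. Over all genes 0.533% differed at that threshold between ethanol + stress and ethanol and 0.63% between ethanol + stress and stress. These comparisons share the ethanol + stress libraries by which the genes were called, so the counts, like the values of single genes against the ethanol and stress groups above, are descriptions and cannot be read against the shares over all genes. The 10 genes higher than both were Snx6, Fli1, Plin3, Mt2, Sinhcaf, Tmco4, Id1, Gm42642, Gm21769 and Gm48042, the last listed at 0 in ethanol + stress mouse 3 and in all 9 other libraries.

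Ethanol + stress mouse 1 differed from mice 2 and 3 across the transcriptome. The SD over genes of the log2 difference was 0.524 between mice 1 and 2 and 0.512 between mice 1 and 3, but 0.454 between mice 2 and 3. It was 0.393 to 0.421 between control mice, 0.422 to 0.441 between stress mice and 0.472 to 0.566 between ethanol mice. Mouse 1 was closer to each control (0.423 to 0.446) than to either member of its own group, whereas mice 2 and 3 lay 0.453 to 0.523 from the controls. In 58 of the 97 higher and 26 of the 41 lower genes mouse 1 was the nearest of the 3 to control.

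The difference ran through whole lists of genes of respiration, translation and neuronal excitability. Among the 13 genes encoded by mitochondrial DNA, mouse 1 was below both other ethanol + stress mice in 13. The same was found for 83 of 83 cytosolic ribosomal protein genes and 76 of 79 nuclear genes of oxidative phosphorylation, beside 42.0% of all genes. The library medians of ribosomal protein genes, relative to the control mean, were -0.16, 0.52 and 0.49 in mice 1, 2 and 3, those of the mitochondrial genes -0.08, 0.49 and 0.69, and those of the nuclear respiratory genes -0.16, 0.44 and 0.34. Mouse 1 thus lay just under the controls and mice 2 and 3 well above them.

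Ion channels went the other way. Mouse 1 was above both group mates in 27 of 32 voltage-gated potassium channel genes, 18 of 25 voltage-gated sodium and calcium channel genes, 14 of 17 ionotropic glutamate receptor genes and 46 of 55 clustered protocadherins, beside 38.1% of all genes. The library medians of the potassium channels were 0.07 in mouse 1 and -0.47 and -0.28 in mice 2 and 3.

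Grin2b, a subunit of the NMDA receptor (chr6:135713233-136173511), was at 75.4, 85 and 82.0 TPM in control and at 73.0, 37.8 and 52.7 TPM in ethanol + stress. Kcnc2, a fast potassium channel of interneurons, was at 46.5, 44.7 and 48.9 TPM in control and at 44.5, 26.0 and 29.1 TPM in ethanol + stress. Scn8a, an axonal sodium channel, was at 69.7, 64.0 and 65.2 TPM in control and at 64.8, 37.8 and 45.9 TPM in ethanol + stress. In each of them mouse 1 was at or next to the control range and mice 2 and 3 were below it, and none was called with all libraries, while all 3 were called without mouse 1. Gria4 and Kcns1, named from the same lists, did not share this arrangement. Gria4 was at 42.6, 39.8 and 46.7 TPM in control and at 37.3, 34.3 and 36.85 TPM in ethanol + stress. Kcns1 was at 7.30, 6.89 and 7.20 TPM in control and at 6.35, 5.02 and 6.33 TPM in ethanol + stress. In both, mouse 1 was close to mouse 3 and below all controls, and neither was called with or without mouse 1.

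The mitochondrial gene mt-Atp6 was at 4990, 3326 and 4040 TPM in control and at 5236, 7927 and 8553 TPM in ethanol + stress (log2 difference 0.80 ± 0.27). C1qb, a complement gene of microglia, was at 64.4, 57.0 and 58.3 TPM in control and at 66.1, 94.5 and 89.2 TPM in ethanol + stress (0.46 ± 0.16). The groups did not overlap in either gene, neither was called with all libraries, both were called without mouse 1, and mouse 1 was the lowest of its group in both.

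**Figure D4:**
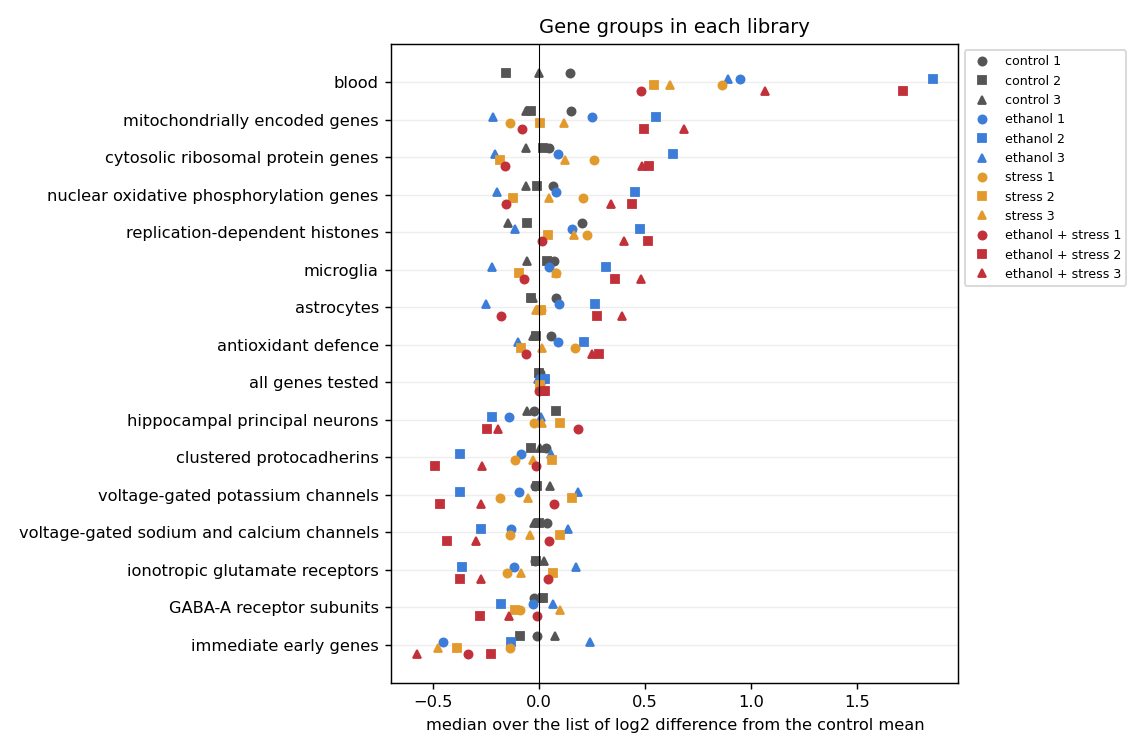
Median over each list of the log2 difference from the control mean, for every library. In the upper groups ethanol + stress 2 and 3 (red square and triangle) and ethanol 2 (blue square) lie to the right and ethanol + stress 1 (red circle) lies near or left of the controls except for blood, and in the channel and receptor lists the order is reversed.

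The pattern of mice 2 and 3 was not confined to their group. Ethanol mouse 2 had library medians of 0.63 in ribosomal protein genes and -0.37 in potassium channels, close to those of ethanol + stress mice 2 and 3, while ethanol mouse 3 and stress mouse 2 (-0.21 and 0.18, and -0.18 and 0.16) lay on the side of mouse 1. It also followed gene length: genes of the shortest of 4 equal length classes had medians of -0.07, 0.24 and 0.20 in ethanol + stress mice 1, 2 and 3, and genes of the longest class 0.03, -0.13 and -0.10. The same libraries differed in their deposited sums, 921282 in mouse 1 against 1126490 and 1130571 in mice 2 and 3, and in the share of mitochondrially encoded RNA, 6.50%, 7.84% and 8.38%. The part of these properties of the libraries in the differences was not tested.

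Leaving out mouse 1 changed the comparison more than leaving out any other of the 6 libraries. Without it 695 genes (4.81%) were called, 288 higher (1.99%) and 407 lower (2.82%), 92 of them among the 138 called with all libraries. Genes with an unadjusted p under 0.05 numbered 3113, but 1 gene, Gm16289, had a limma adjusted p under 0.05. Mouse 1 was the furthest from its group mates, so leaving it out also narrows the spread in genes where it differed. The counts and p-values without mouse 1 are therefore descriptions. Among the 603 genes called solely without mouse 1, mouse 1 lay on the other side of the control mean in 386 (64.0%). Ethanol mice 1, 2 and 3 lay on the same side of the control mean as ethanol + stress mice 2 and 3 in 91.4%, 98.0% and 32.0% of these genes, and stress mice 1, 2 and 3 in 84.2%, 43.8% and 79.6%. All these shares use the control mean by which the genes were called, so they are descriptions. Leaving out mouse 2 or 3 gave 48 and 73 higher and 31 and 32 lower genes.

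Several lists held more calls without mouse 1, to be read beside 1.99% of all genes called higher and 2.82% called lower. Replication-dependent histones had 8 higher and 1 lower among 63. Potassium channels had 5 lower calls among 32 and sodium and calcium channels 4 among 25, and ionotropic glutamate receptors had 3 among 17. Protocadherins had 5 lower calls among 55, with Pcdhga9 again among them, microglial markers 3 higher among 14 and ribosomal protein genes 2 higher among 83, the last near the share of all genes. Splicing factors were split, with 3 higher and 6 lower among 78. Other lists lost their call: immediate early genes (Btg2) and markers of meninges and fibroblasts (Igf2) had none without mouse 1, and principal neurons had 1 lower gene in place of Iyd. The log2 differences of Btg2 (-0.73), Igf2 (0.58) and Iyd (0.60) without mouse 1 were nevertheless close to those with all libraries. When the trend of each library over gene length was removed, 338 higher and 418 lower genes were called without mouse 1, and 572 of the 695 genes remained called.

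**Figure D5:**
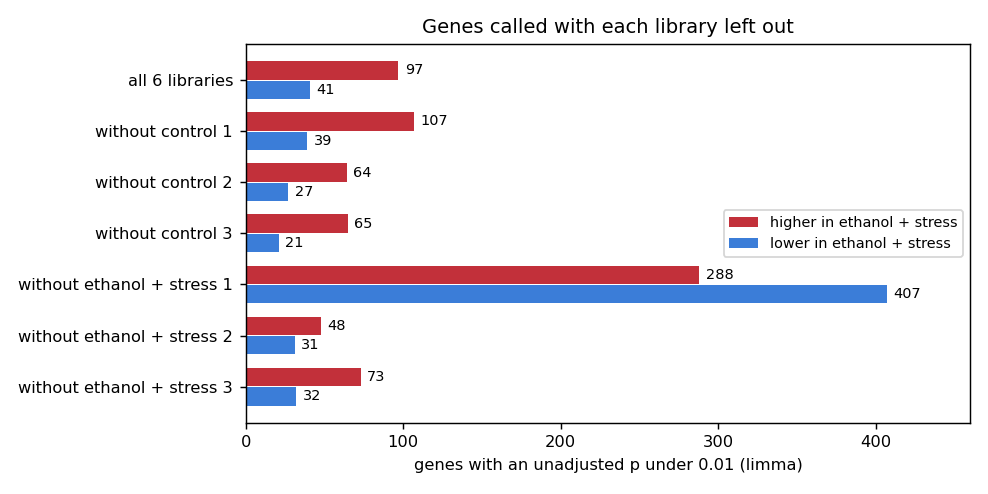
Number of genes called at an unadjusted p under 0.01, higher (red) and lower (blue) in ethanol + stress, with all 6 libraries and with each of them left out. Without ethanol + stress 1 the counts are 288 and 407, against 48 to 107 and 21 to 41 in the other bars.

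Mouse 1 was also the highest of the 12 libraries in 1281 genes and the lowest in 1210, beside 1205 for an even share, while mouse 2 was highest in 2046 and lowest in 2157. The extreme genes of mouse 1 were mostly pseudogenes at few TPM. Of those highest in it, Golm1, a Golgi membrane protein, stood at 96.9 TPM, beside 35.6 and 49.5 TPM in mice 2 and 3 and 31.7 to 56.8 TPM in the 9 other libraries. Gm20257 stood at 13.4 TPM in mouse 1 and at 0.931 to 3.83 TPM in the others. Gm17482 was at 24.7 TPM and listed at 0 in all control and stress libraries, and Gm4617, Gm10698, Gm49044, Gm48753 and Gm47803, likewise highest in mouse 1, had libraries listed at or near 0.

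Of the genes lowest in mouse 1, Gm13304 and Gm49337 were listed near 0 in mouse 1, and AC122821.1, Gm48827, Gm16125, Gm11517 and Gm12260 at 0.

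A list of 5 genes was taken from the study, where a transcript and the promoter methylation differed in opposite directions in ethanol + stress, so the list leaves out genes that differed in the same direction and was chosen on these samples and is no independent evidence. At the level of gene sums 1 of the 5 was called, beside 0.955% of all genes. Pinx1, an inhibitor of telomerase, was at 7.50, 7.06 and 4.99 TPM in control and at 8.02, 10.1 and 12.8 TPM in ethanol + stress, without overlap (log2 difference 0.62 ± 0.20, limma adjusted p = 0.751), and the ethanol mice were at 8.41 to 11.6 TPM. The call was kept in 10 of 19 alternative fits.

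Dlg3, a synaptic scaffold protein, was at 79.9, 82.1 and 82.4 TPM in control and at 90.8, 53.8 and 56.6 TPM in ethanol + stress, with mouse 1 above and mice 2 and 3 below control (-0.32 ± 0.20). Slu7, a splicing factor, was at 53.6, 56.2 and 53.5 TPM in control and at 65.3, 50.3 and 47.3 TPM in ethanol + stress, with the same arrangement (-0.02 ± 0.12). Arpp21, a cAMP-regulated phosphoprotein, was at 140.6, 136.7 and 140.6 TPM in control and at 129.1, 104.9 and 131.1 TPM in ethanol + stress (-0.20 ± 0.18). Unc119, a chaperone of lipid-modified proteins, was at 35.5, 30.4 and 28.8 TPM in control and at 28.4, 42.3 and 35.7 TPM in ethanol + stress (0.15 ± 0.14). None of these 4 passed the threshold, and Dlg3 was called lower without mouse 1 (log2 difference -0.56). In the results of the study, transcripts of Arpp21, Dlg3 and Pinx1 were increased and those of Slu7 and Unc119 decreased. The gene sums of Arpp21, Dlg3 and Unc119 differed in the opposite direction, that of Pinx1 in the same direction, and that of Slu7 barely differed. Sums over a gene can hide a change of 1 transcript.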

How the data were processed

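RNA-Seq values of the hippocampus of 12 mice in 4 groups of 3 were analysed. The deposited signal was produced by the authors from stranded, rRNA-depleted paired-end libraries: the mouse transcriptome of Ensembl (GRCm38) was quantified by kallisto and its TPM scaled between libraries by sleuth, versions not given in the sources used here. No column belonged to another series.

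Of 115270 transcripts, 113580 were matched to GENCODE vM21 (112441 with the same version), and their values were summed over 35580 genes, of which 24617 were above 0. The unmatched transcripts held 0.518% to 0.58% of a library. Genes with a mean of 1 TPM or more were tested as log2(sum + 0.5) with limma 3.58.1 in R 4.3.3 (lmFit, eBayes with trend), in a two-sided test with all 12 libraries in one model of 4 groups and no replicate block. Fold changes on this scale are understated for low genes. The Benjamini-Hochberg adjustment ran over the 14455 genes. Depth was estimated from a step that made 81.4% to 87.0% of low values whole within 0.1 read pairs, and covers counting error only. In a simulation of this comparison over 14455 genes, the call recovered 88% of 100 genes with a log2 change of 1 and 97% of 100 with a change of 2, and took in 1.13% of the 14255 genes left unchanged. Tables were made with Python 3.11.15 and pandas 2.3.3, and plots with matplotlib 3.10.9.

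The members, the 38 gene lists and the tests were chosen with earlier results of these data known. Genes were named where called and not overlapping (the 10 largest differences each way of coding genes and 3 of others), as the called members of each list or its 2 smallest p-values, as the 8 highest and 8 lowest gaps of ethanol + stress library 1, or as the 5 genes of the study. Alternatives were another pseudocount, filter, scaling, variance model, transcript set, threshold, a length correction, a replicate block and each library left out. Promoter windows are RefSeq sequences of GRCm38.p6. The methylation libraries were not analysed here. One gene that the rule names is not reported here.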

Additional observations from a re-analysis of the deposited data

How the results depend on the processing

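Calls rest on 3 mice per group and an unadjusted p, so counts moved with several settings. The 97 higher, 41 lower and 0 adjusted calls became 161, 72 and 5 without the filter on low values, 41, 42 and 1 with a common total, and 57, 50 and 0 after removing the 20 highest genes. There was 1 adjusted call with eBayes without trend, and there were 3 with control and ethanol + stress alone. At an unadjusted p under 0.05 the counts were 451 higher and 324 lower. With 1 library left out in turn, the higher calls ranged from 48 to 288, the lower from 21 to 407 and the adjusted from 0 to 1. The adjusted call was Gm16289 without ethanol + stress replicate 1, and 1 gene also passed without replicate 3. Without control replicates 2 and 3 there were 64 and 65 higher and 27 and 21 lower calls. Chosen after seeing the data, removal of the length trend without ethanol + stress replicate 1 gave 338 higher, 418 lower and 2 adjusted calls. Whichever library was left out, 20 higher and 9 lower genes stayed called. The other settings (pseudocount 0.1 or 1, a minimum of 5 TPM, median-of-ratios size factors, length trend removed, protein-coding transcripts alone) kept each count within 1.5 times. Over the genes named by rule, without the extreme genes of ethanol + stress library 1, called genes lost the call in 155 of 681 alternative fits and none reversed. Among uncalled genes Per3 turned to -0.044 with protein-coding transcripts alone, and with 1 library left out Slu7 ranged from -0.157 to 0.074 (0.006, 0.031 and 0.074 without control replicate 2 and ethanol + stress replicates 2 and 3), Calml4 from -0.116 to 1.232 and Otx2 from -0.109 to 1.071, both negative without ethanol + stress replicate 2. The extreme genes of ethanol + stress library 1 were chosen on that library, and 9 of the 15 reported turned sign without it, such as Golm1 (0.29 to -0.11), Gm20257 (0.89 to -0.03), Gm13304 (-1.6 to 0.24) and AC122821.1 (-0.22 to 0.665). With a replicate block 85 genes were higher, 34 lower and 0 passed the adjustment, and 96 of the 138 calls were shared. Mice of the same number did not deviate together (correlations -0.096, -0.082 and -0.049), so the numbers were not taken to pair the samples.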

Other observations

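The lists not yet described held no called gene. Among functions linked to the exposures, the 16 measured genes of the DNA methylation machinery had a median log2 difference of -0.00 between ethanol + stress and control, with 5 members wholly below control, beside 4.88% of all genes. Dnmt3a, a methyltransferase that sets new DNA methylation, was at 19.9, 21.6 and 23.1 TPM in control and at 15.4, 18.8 and 17.8 TPM in ethanol + stress (-0.31 ± 0.11), without overlap. The list of alcohol and aldehyde metabolism (10 measured, median 0.03), that of corticosteroid receptors and the CRH system (9, -0.10) and that of neurotrophins and receptors (8, -0.03) each lay near 0, and the glucocorticoid receptor gene Nr3c1 differed by -0.10 ± 0.09 . Aldh3a1, an aldehyde dehydrogenase outside that list and named after its values were seen, was called lower, at 1.27, 1.23 and 1.55 TPM in control and at 0.444, 0.661 and 0.742 TPM in ethanol + stress (-0.73 ± 0.23), below all 9 other libraries. Antioxidant defence (26, median 0.20), heat shock proteins and chaperones (27, -0.11), circadian clock genes (18, 0.05), neuropeptide precursors (16, -0.11), interferon response genes (16, 0.11), cytokines and their receptors (23, 0.03), neuron migration genes (22, -0.10), synaptic scaffolds (15, 0.07), GABA-A receptor subunits (12, -0.12) and splicing factors (78, -0.05) also held none.

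Among cell type markers, those of astrocytes (14, median 0.14), oligodendrocytes and myelin (18, -0.01), endothelium and pericytes (15, 0.05), ependymal cilia (11, 0.28), choroid plexus (17, 0.36), interneurons (12, -0.09), striatum (11, -0.09), thalamus (10, 0.00) and adult neurogenesis (9, -0.03) held none. Dcx, a marker of newborn neurons, was at 4.38, 4.06 and 3.76 TPM in control and at 2.82, 3.00 and 2.58 TPM in ethanol + stress, a log2 difference of -0.47 ± 0.16 that did not pass the threshold. Reln, a secreted guide of neuron position made by interneurons, was at 21.7, 14.7 and 20.2 TPM in control and at 13.0, 9.03 and 12 TPM in ethanol + stress (-0.71 ± 0.28). The groups did not overlap in either gene. The medians of 8 lists changed sign under another scaling: thalamus, endothelium and pericytes, meninges and fibroblasts, synaptic scaffolds, alcohol and aldehyde metabolism, circadian clock, interferon response and cytokines.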
